A study of Mus musculus with 6 samples.

Results

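The HSP70 chaperone family was followed through 10 genes, Hspa12a, Hspa12b, Hspa1a, Hspa1b, Hspa2, Hspa4, Hspa5, Hspa8, Hspa9 and Hspa13, taken by symbol from the 28752 genes of the deposited table. All 10 were listed, and 9 had enough reads to be compared; Hspa12b did not. The genes were chosen by their measured counts in these same samples (vector against circEZH2_005), so their differences between the groups are given as a description, without a test. Intestinal crypt stem cells were Lgr5+ cells of Lgr5-GFP mice, cultured as organoids. The control group (genotype label WT, n = 3) carried the vector, and the other group (genotype label circEZH2_005 overexpression, n = 3) overexpressed the circular RNA circEZH2_005 from an adenovirus for 72 h. All 6 samples then underwent hypoxia/reoxygenation (H/R), with 4 h at 2% O2, so cells kept in normal oxygen are not among them. No label gives the mouse or culture behind a replicate number, and the spread between samples may therefore be partly technical. Libraries were made from polyadenylated RNA, so the circular RNA itself was not analysed here and the labels were not checked against it.

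HSP70 proteins are chaperones that bind short hydrophobic stretches of unfolded proteins and release them in a cycle driven by ATP. J-domain proteins bring them clients and start ATP hydrolysis, nucleotide exchange factors reset them, and adaptor proteins pass clients on to HSP90 or to degradation. In the intestine, as elsewhere, some members are made constantly, some serve the endoplasmic reticulum (ER) or mitochondria, and some are induced by heat, hypoxia and other stress through the heat shock factor HSF1, which binds repeated GAA units called heat shock elements. HSPA12A and HSPA12B are distant relatives with an atypical ATPase domain.

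Each library held between 71506487 and 79919893 counts. Vector sample 2 stood closer to the circEZH2_005 samples (Pearson's r across genes, which are not independent replicates, between 0.983 and 0.988) than vector samples 1 and 3 did (between 0.973 and 0.982). Within the vector group r was 0.988 between sample 2 and each of the other samples, and 0.994 between samples 1 and 3. Over all 18348 genes tested, the median log2 fold change (circEZH2_005 minus vector) was 0.00. Among the defining markers of the labelled cells, Epcam was between 1288 and 1364 CPM (counts scaled for library size and composition) in the vector group and between 1348 and 1618 CPM in the circEZH2_005 group. Lgr5, the crypt stem cell receptor, was between 12.1 and 18.3 CPM and between 7.70 and 9.10 CPM in the same groups. The leukocyte, endothelial, fibroblast and neuronal markers are given with the results below. In bulk samples, fewer cells of a type and less RNA per cell cannot be told apart.

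The levels of the members per length spanned a wide range. FPKM (fragments per kilobase, scaled for library size) put Hspa8, the constitutive cytosolic HSP70, highest at 388 over the 6 samples. Hspa5 (BiP), the HSP70 of the ER, followed at 233, Hspa9 (mortalin), that of the mitochondrial matrix, at 133, and Hspa4, a nucleotide exchange factor of the HSP110 type, at 53.9. Hspa13, a microsomal member, was at 6.45. In the vector group these 5 genes kept the order Hspa8, Hspa5, Hspa9, Hspa4, Hspa13 with no overlap between neighbours, and they kept it in the circEZH2_005 group, with the lowest Hspa8 value at 239 FPKM and the highest Hspa5 value at 214 FPKM. Below them the order depended on the group. In the vector group Hspa1b was at 3.34 ± 0.71 FPKM (SD, n = 3) and Hspa1a at 1.38 ± 0.51, above Hspa12a at 0.415 ± 0.044. In the circEZH2_005 group Hspa12a, at 4.30 ± 1.40 FPKM, was above Hspa1b at 0.942 ± 0.148 and Hspa1a at 0.325 ± 0.066. Hspa12a and the pair Hspa1a and Hspa1b thus did not overlap in either group, and their order differed. Hspa2 followed at 0.283 ± 0.039 FPKM with the vector and at 0.148 ± 0.104 FPKM with circEZH2_005, where its highest value of 0.266 lay above the lowest Hspa1a value of 0.263. Hspa12b was last, at 0.0767 FPKM or less in every sample. The length implied by FPKM exceeded that of the transcript with the longest coding sequence. It was at least 10174 bases against 5734 for Hspa12a, 4732 against 2394 for Hspa8 and 3272 against 2967 for Hspa1a. All annotated exons of the gene together came to 9192 bases for Hspa12a and 4301 for Hspa8, nearer to the implied length. For Hspa1a, with 1 exon, they came to the same 2967 bases, so its gap does not come from the exons counted. Levels of different genes therefore depend on the length used. Per kilobase of the transcript with the longest coding sequence, Hspa12a in circEZH2_005 sample 2 (11.4 CPM) lay within the circEZH2_005 values of Hspa13 (between 11.1 and 11.8 CPM).

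**Figure D1:**
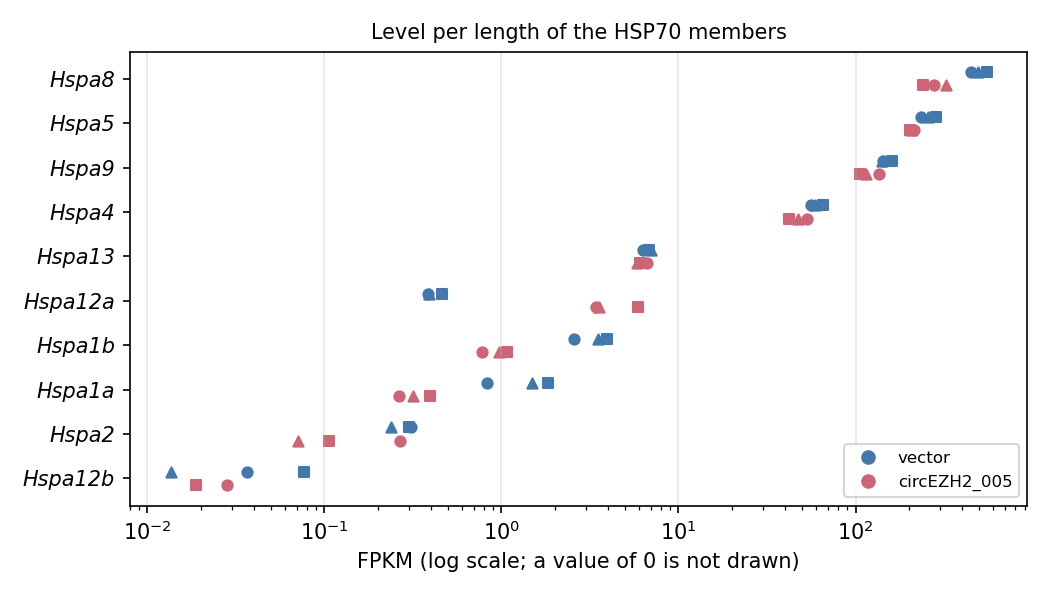
FPKM of the 10 HSP70 members in each of the 6 samples (log axis; blue, vector; red, circEZH2_005; circles, squares and triangles, replicates 1, 2 and 3), ordered by the mean over all samples. Hspa12a is the member whose red points lie to the right of its blue points, from 0.387 to 0.465 FPKM in the vector group and from 3.41 to 5.92 FPKM in the circEZH2_005 group.

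Hspa12a (chr19:58795750-58943654, minus strand, GRCm38, 12 exons) had 284, 343 and 306 counts in vector samples 1 to 3 and 2679, 4855 and 2782 counts in circEZH2_005 samples 1 to 3. All 3 circEZH2_005 samples were above all 3 vector samples, and circEZH2_005 sample 2 was the highest. Scaled, the level was 4.14 ± 0.39 CPM with the vector and 45.9 ± 16.9 CPM with circEZH2_005 (SD, n = 3), an 11.1-fold difference with a log2 fold change of 3.47 (standard error 0.26). Without circEZH2_005 sample 2 the log2 fold change was 3.13. Of all genes tested, 42 had a log2 fold change at least as high, 12 of them with a mean of at least 0.5 FPKM. Both counts include Hspa12a itself. With the vector Hspa12a averaged 0.415 FPKM, below that limit, and with circEZH2_005 it averaged 4.30 FPKM. It therefore passed the limit through the circEZH2_005 group alone. Because the members were chosen with this same comparison known, these counts describe its place and are not a test. Eno4, an enolase gene on the other strand, overlaps Hspa12a and had between 0 and 16 counts in a sample, which is at most 3.59% of the Hspa12a count. Whether strand was used in the counting is not given in the sources used here. The microRNA gene Mir3086 also overlaps Hspa12a and was not analysed here. Hspa12b, the closest relative of Hspa12a and a gene known for its expression in endothelium, had 11, 23 and 5 counts in the vector group and 9, 7 and 0 counts in the circEZH2_005 group. A count of 0 allows up to 3 counts, or 0.0419 CPM in that library, for counting error only. The groups overlapped, and the gene was too low to be compared.

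The heat-inducible members went the other way. Hspa1a (chr17:34969190-34972156, minus strand, GRCm38, 1 exon) had 197, 433 and 372 counts with the vector and 67, 105 and 80 counts with circEZH2_005. Its neighbour Hspa1b (chr17:34956436-34959238, minus strand, 1 exon) had 571, 885 and 832 counts with the vector and 187, 268 and 231 counts with circEZH2_005. In both genes every vector sample was above every circEZH2_005 sample, and vector sample 2 was the highest and circEZH2_005 sample 1 the lowest. The log2 fold change was -1.98 (standard error 0.34) for Hspa1a and -1.73 (standard error 0.23) for Hspa1b. These single-exon genes are near-identical copies: 58.8% of the 50-base windows of Hspa1a and 62.3% of those of Hspa1b occur in the other gene, so the split of reads between them is uncertain. Their sum does not depend on that split. Hspa1a and Hspa1b together were at 14.5 ± 3.59 CPM with the vector and at 4.18 ± 0.92 CPM with circEZH2_005 (SD, n = 3), a 3.48-fold difference. Hspa1l, a testis-enriched gene beside them, and the antisense gene Gm10501 share further windows with both, and adding their counts gave a log2 ratio of -1.47. That ratio leaves out Gm20481, a protein-coding gene that overlaps Hspa1a on the other strand and shares 16.2% of the windows of Hspa1a and 10.8% of those of Hspa1b; its counts were not analysed here.

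Among the constitutive members, Hspa8 (chr9:40800984-40810087, plus strand, GRCm38) had 2121, 2527 and 2272 CPM with the vector and 1274, 1234 and 1637 CPM with circEZH2_005. The highest circEZH2_005 sample was below the lowest vector sample, and the log2 fold change was -0.74 (standard error 0.14), which is 40.1% lower. Hspa8 shares 50-base windows with 16 other genes, 12 of them processed pseudogenes. The 9 of these genes that the table lists held between 9.64% and 9.96% of the Hspa8 count in a sample, and adding their counts left the log2 ratio at -0.75. The small nucleolar RNA genes Snord14c, Snord14d and Snord14e, which overlap Hspa8, had at most 1 count each in a sample. Hspa2, a member best known from spermatogenesis, was low, with 66, 64 and 54 counts against 61, 25 and 16 counts. Its groups overlapped through circEZH2_005 sample 1, and its log2 fold change of -0.88 (standard error 0.50) was -1.55 without that sample and -0.57 without circEZH2_005 sample 3.

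The members of the organelles and Hspa4 differed little between the groups. Hspa5 was at 1087, 1279 and 1170.3 CPM with the vector and at 971, 1029.8 and 1022 CPM with circEZH2_005. The log2 fold changes were -0.23 for Hspa5, -0.24 for Hspa9 and -0.26 for Hspa4, each with a standard error of 0.09. In each of the 3 genes the circEZH2_005 samples were all below the vector samples, by a narrow margin. Hspa4 was between 340.0 and 389 CPM with the vector and between 279 and 316 CPM with circEZH2_005, and Hspa9 was between 658 and 739 CPM and between 547 and 624 CPM. Hspa13 was between 47.6 and 51.8 CPM with the vector and between 47.1 and 49.9 CPM with circEZH2_005, with a log2 fold change of -0.04 (standard error 0.07), and its groups overlapped. Of the genes that overlap these members, Gm22200 and Gm26109, at Hspa9, had at most 4 and 12 counts in a sample, and Gm15553 and Gm22923, at Hspa13, were not analysed here, nor was Gm11037 at Hspa12b.

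**Figure D2:**
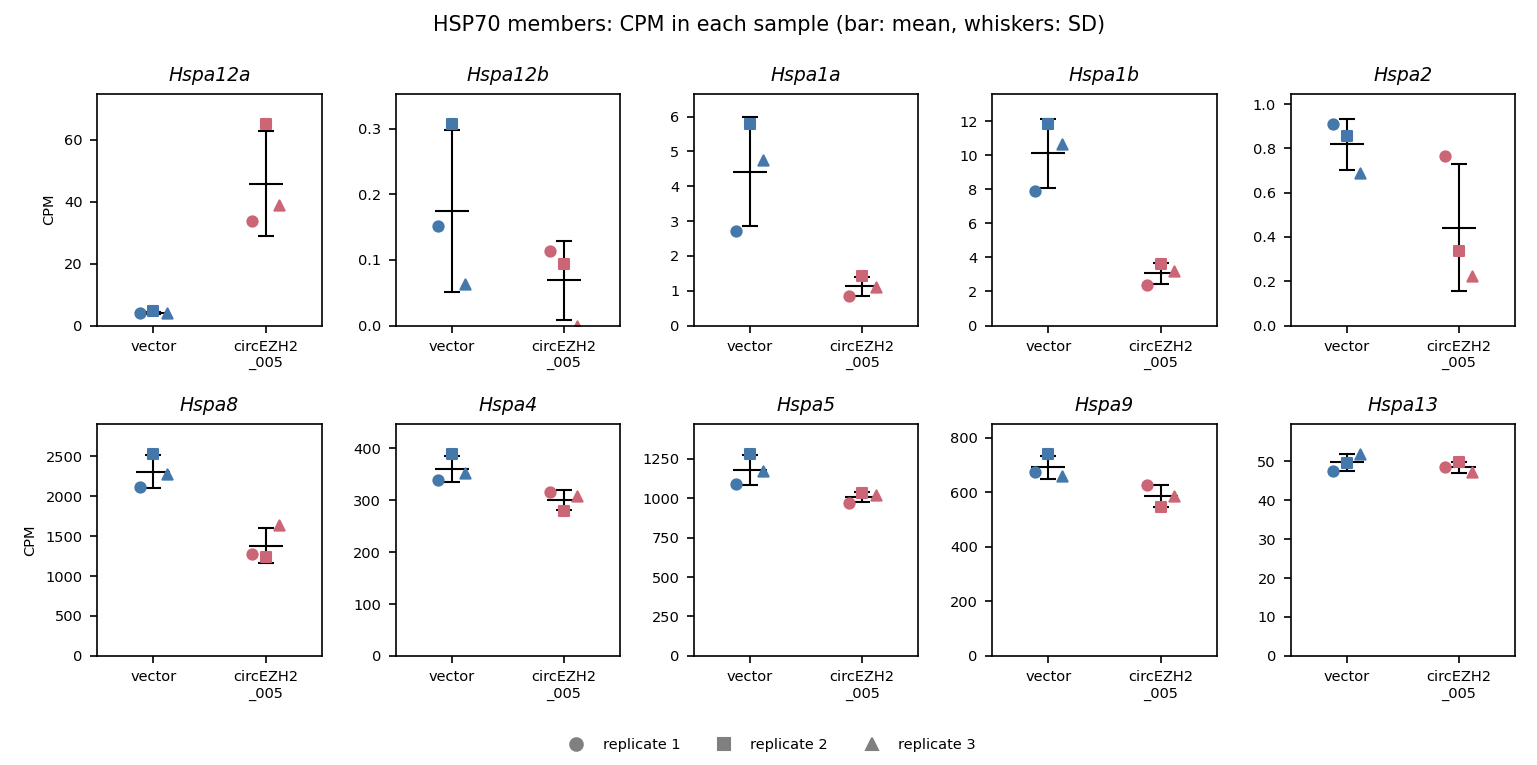
CPM of each HSP70 member in the 3 vector samples (blue) and the 3 circEZH2_005 samples (red), with the mean as a bar and the SD as whiskers; each panel has its own linear axis from 0. Hspa12a is the panel with all red points above the blue ones, and Hspa1a, Hspa1b, Hspa8, Hspa4, Hspa5 and Hspa9 are those with all red points below.

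Of the 9 members compared, 8 had a fitted log2 fold change below 0, and the median was -0.26, or -0.50 without Hspa12a. Groups did not overlap in CPM for 7 of the 9, 6 lower and 1 higher with circEZH2_005, where 30.6% of all genes tested did not overlap in either direction. At a Benjamini-Hochberg adjusted p under 0.05 in edgeR's quasi-likelihood test, 1 member (Hspa12a) was among the higher genes, a class that held 2.69% of all genes tested. A further 3 (Hspa1a, Hspa1b and Hspa8) were among the lower genes, a class that held 0.986%. Since the members were chosen with this comparison known, nothing is read from these counts.

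The makeup of the family differed between the groups as well. The summed FPKM of the 10 members was 892, 1074 and 959 with the vector and 690, 604 and 701 with circEZH2_005. Hspa8 made up between 50.4% and 51.3% of that sum with the vector and between 39.6% and 46.1% with circEZH2_005. Hspa5 made up between 26.2% and 26.7% and between 29.2% and 33.6% in the same groups. The abundant members therefore carried nearly all of the sum, and Hspa12a, in spite of its fold change, made up between 0.0408% and 0.0434% of it with the vector and between 0.495% and 0.980% with circEZH2_005. Set against the inducible pair, Hspa12a FPKM was between 0.0785 and 0.114 times that of Hspa1a and Hspa1b together with the vector, and between 2.77 and 4.04 times with circEZH2_005. FPKM values ran slightly lower against CPM in the circEZH2_005 group, by a median of 0.09 on the log2 scale across genes, which does not touch ratios within a sample. The length implied by FPKM, given above, does affect shares and ratios between genes.

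Promoter sequence was read for the members with an entry in the RefSeq promoter table (GRCm38.p6, from 250 bases before to 50 bases after the start), which were 7 of the 10; Hspa8, Hspa9 and Hspa13 had none. The heat shock element was searched as GAANNTTC or TTCNNGAA on both strands, a short motif held by 15.1% of 32851 promoters. It was found in Hspa1a and Hspa1b, and these letters were not in the windows of Hspa12a (2 windows), Hspa12b, Hspa2, Hspa4 and Hspa5. The windows of Hspa1a and Hspa1b were identical at 296 of 300 positions, and the motif lay 104 bases before the start in both. The ER stress response element was searched on both strands as CCAAT, a spacer of any 9 bases and CCACG, a motif held by 0.119% of promoters, and it was found in Hspa5, 65 bases before the start. The sites are printed below 5′ to 3′ on the strand of the gene, with the motif in capitals and the bases around it in lower case, because they show what the paired members share and how the ER member differs from them.
Hspa1a, chr17:34972243-34972270, minus strand: gaaactgctgGAAGATTCctggccccaa
Hspa1b, chr17:34959325-34959352, minus strand: gaaactgctgGAAGATTCctggccccaa
Hspa5, chr2:34772020-34772048, plus strand: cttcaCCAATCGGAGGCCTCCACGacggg
A match to these letters is a description of the sequence and does not show that a factor bound there.

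The partners of HSP70 were compared next, to ask how the genes the family works with differed in the same samples. Their lists were chosen with earlier results of these data known, which limits what the shares below can show. Of 151 genes in 11 lists, 147 were in the table and 144 were tested. Lower with circEZH2_005 were 8 of them (5.56%, beside 0.986% of all genes tested), and 0 were higher (edgeR, Benjamini-Hochberg adjusted p under 0.05). At an unadjusted p under 0.05 the counts were 35 lower and 5 higher, where 9.72% of all genes tested were lower and 14% higher. DESeq2 called 26 partners lower and 2 higher, and over all genes to which it gave an adjusted p it called 5.02% lower and 9.86% higher. The median log2 fold change of the 144 genes was -0.14, and 102 of them were below 0. The count of lower partners changed with the sample left out, and so did that of all genes called lower (181 with all samples). It was 2 (of 2 genes called lower in all) without vector sample 1, 1 (of 2) without vector sample 3 and 10 (of 334) without vector sample 2. In the other group it was 2 (of 6) without circEZH2_005 sample 2, 4 (of 33) without circEZH2_005 sample 3 and 6 (of 128) without circEZH2_005 sample 1. Fkbp5 was called in each of these 6 fits, and Hsph1 in all but the one without vector sample 3. Ahsa2 and Chordc1 were also called without circEZH2_005 sample 1 or 3, Hspa4l and Pdia6 without circEZH2_005 sample 1, and all 8 genes without vector sample 2.

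**Figure D3:**
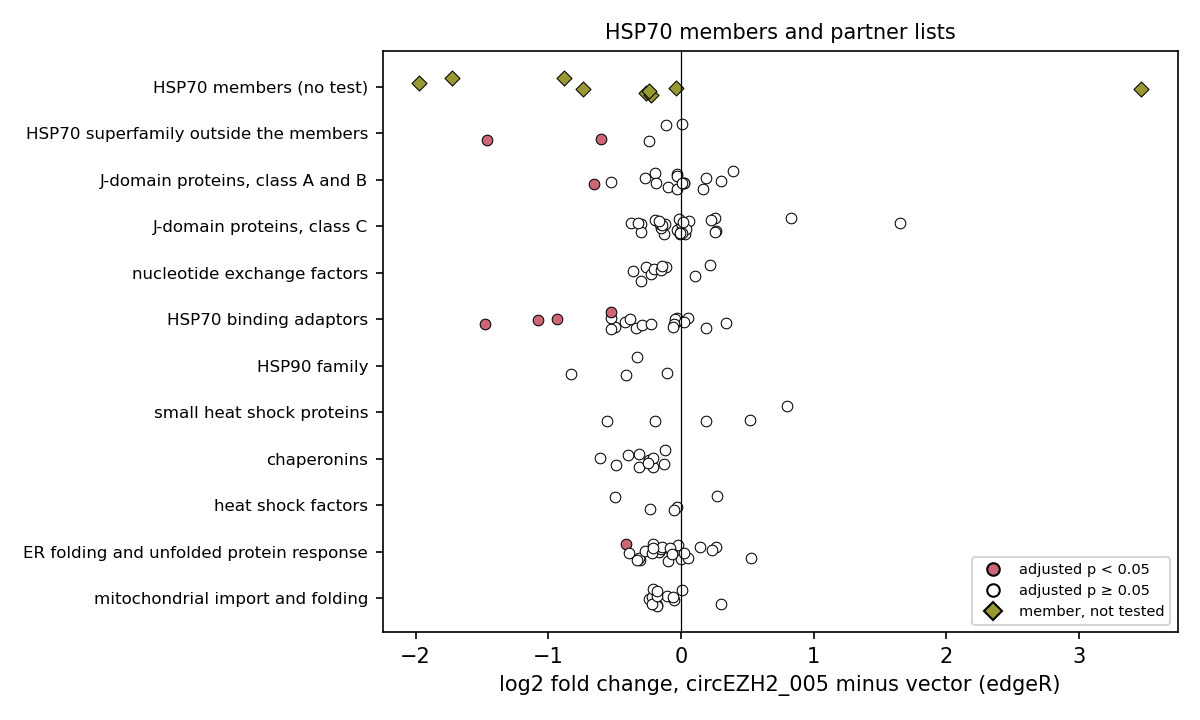
Log2 fold change (circEZH2_005 minus vector, edgeR) of the 9 HSP70 members compared (diamonds, described without a test) and of the genes of each partner list (circles; red, adjusted p under 0.05; white, not under 0.05). The 8 red circles all lie left of 0, between -1.48 for Fkbp5 and -0.41 for Pdia6, and the 11 chaperonin genes all lie left of 0 without a red circle.

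Other genes of the HSP70 superfamily came first, with 2 of 5 lower. Hsph1 (HSP105), an HSP110-type exchange factor that is itself heat-inducible, was at 190, 273 and 226 CPM with the vector and at 87.1, 68.8 and 94.1 CPM with circEZH2_005. The groups lay far apart, with a log2 fold change of -1.46 with a standard error of 0.16 (adjusted p = 0.0119, and 0.0689 without vector sample 3). Hspa4l, a related exchange factor, was lower at a log2 fold change of -0.60 with a standard error of 0.09 (adjusted p = 0.0242), from between 72.9 and 90.0 CPM to between 53.0 and 54.5 CPM. Hyou1, the large exchange factor of the ER and the highest of this list by FPKM, was at 255 ± 13.3 CPM and 236 ± 4.94 CPM (adjusted p = 0.442). Hspa14, which works at the ribosome, was at 46.9 ± 4.32 and 47.2 ± 3.05 CPM (adjusted p = 0.972), and Hspa1l at 1.41 ± 0.16 and 1.19 ± 0.08 CPM (adjusted p = 0.601; SD, n = 3 throughout).

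The J-domain proteins of class A and B held 1 lower gene among 16 tested. Dnaja1, a main cytosolic partner of HSP70, was at 323, 443 and 351 CPM with the vector and at 216, 241 and 252 CPM with circEZH2_005 (log2 fold change -0.66, standard error 0.13, adjusted p = 0.0450). Dnaja2, the highest of this list by FPKM, was at 210 ± 5.65 CPM and 206 ± 6.05 CPM (adjusted p = 0.858). Dnajb1, another HSF1 target (named after its values were seen), was at 43.8 ± 4.56 and 43.0 ± 1.98 CPM (adjusted p = 0.899). Of the 30 class C proteins none passed the test, with a median log2 fold change of -0.00. Their highest member by FPKM was Dnajc3, an ER partner of BiP, at 217 ± 6.86 and 190 ± 3.41 CPM (adjusted p = 0.165). None of 10 nucleotide exchange factors passed either, and 8 of them had a log2 fold change below 0. Bag1, the highest of them, was at 137 ± 2.74 and 106 ± 8.56 CPM (adjusted p = 0.0574). Bag3 (named after its values were seen) went the other way, at 30.2 ± 1.36 and 35.2 ± 4.21 CPM with overlapping groups (adjusted p = 0.266).

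The list of adaptors and co-chaperones of HSP70 and HSP90 held 4 lower genes among 20. Fkbp5, a steroid receptor immunophilin that is also a glucocorticoid target, was at 72.0, 102 and 80.0 CPM with the vector and at 31.6, 27.4 and 32.3 CPM with circEZH2_005, with a log2 fold change of -1.48 with a standard error of 0.14 (adjusted p = 0.00658). Ahsa2, a relative of the activator of the HSP90 ATPase, was at 32.0, 32.5 and 34.8 CPM and at 11.9, 15.4 and 19.8 CPM, with a log2 fold change of -1.08 with a standard error of 0.18 (adjusted p = 0.0284). Chordc1, which binds HSP90, was at 96.4, 133 and 111 CPM and at 57.0, 52.4 and 68.0 CPM, with a log2 fold change of -0.94 with a standard error of 0.14 (adjusted p = 0.0241). None of these 3 genes had overlapping groups. Ppid, the cyclophilin of the HSP90 complex (named after its values were seen), was lower by less, with a log2 fold change of -0.53 with a standard error of 0.10 (adjusted p = 0.0402). Fkbp4, the highest of this list by FPKM, had the same log2 fold change of -0.53 but a larger spread (standard error 0.13, adjusted p = 0.0601).

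**Figure D4:**
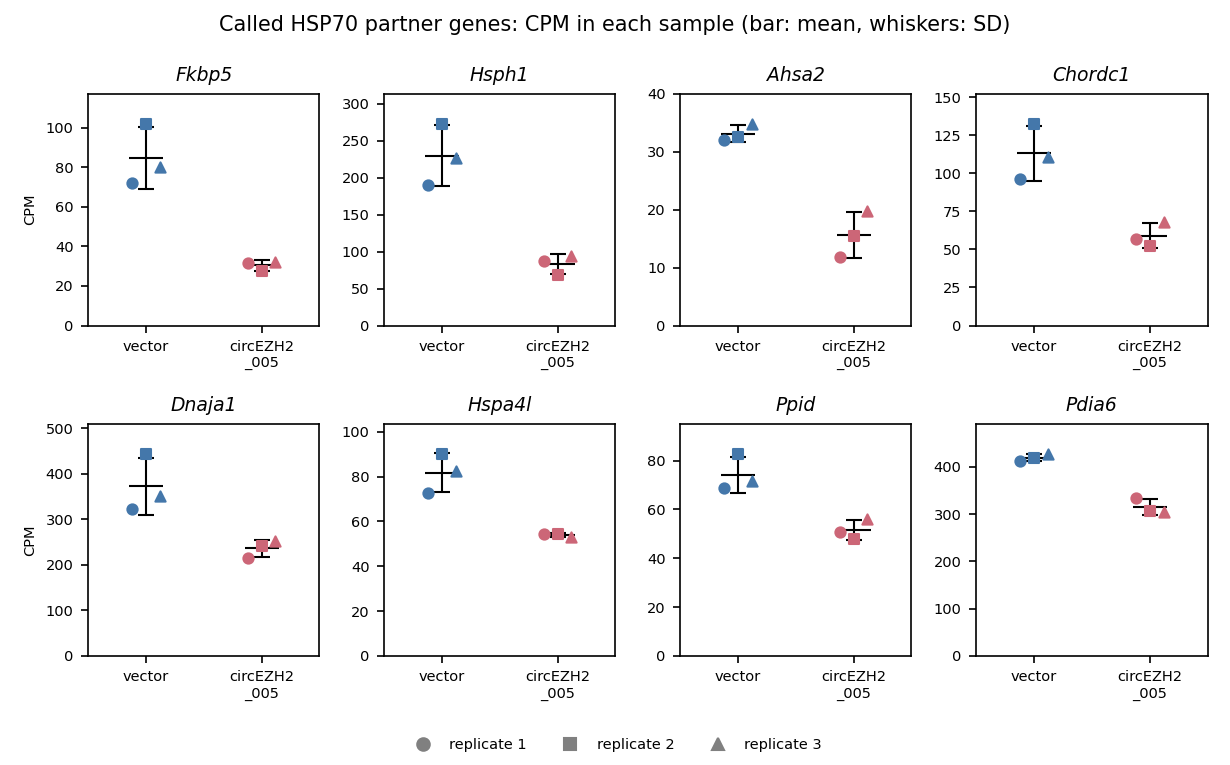
CPM of the 8 HSP70 partner genes with an adjusted p under 0.05, in the 3 vector samples (blue) and the 3 circEZH2_005 samples (red), with the mean as a bar and the SD as whiskers; each panel has its own linear axis from 0. All red points lie below all blue points in each panel, from a mean of 84.7 to 30.4 CPM for Fkbp5 and of 419 to 315 CPM for Pdia6.

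The HSP90 genes, which receive clients from HSP70, were below 0 in 4 of 4 with a median of -0.37, and none passed the test. Hsp90aa1, the inducible cytosolic form (named after its values were seen), was at 767, 1281 and 844 CPM with the vector and at 558, 470 and 601 CPM with circEZH2_005 (adjusted p = 0.0619). Hsp90ab1, the constitutive form and the highest by FPKM, was at 1916 ± 139 and 1440.5 ± 101 CPM (adjusted p = 0.0625). Without vector sample 2, whose Hsp90aa1 was the highest, Hsp90aa1 was among the genes called. Of the 11 chaperonin genes, which fold proteins in closed chambers, none passed and all were below 0, with a median of -0.25. Hspd1, the mitochondrial chaperonin and the highest of them by FPKM, was at 1085 ± 175 and 774 ± 68.8 CPM (adjusted p = 0.0817).

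The genes listed as small heat shock proteins, a class known for holding unfolded proteins without ATP, had low levels. Of 10, 5 were tested and none passed, Hspb1 and Hspb7 were too low, and Hspb2, Hspb3 and Cryaa were not analysed here. Hspb11, listed by its symbol only and the highest by FPKM, was at 2.27 ± 0.20 and 1.98 ± 0.41 CPM (adjusted p = 0.668). The 5 heat shock factor genes tested held no change past the threshold. Hsf1 was at 22.3 ± 2.70 CPM with the vector and 21.8 ± 1.24 CPM with circEZH2_005 (adjusted p = 0.902), and Hsf2 was at 5.96 ± 0.61 and 4.22 ± 0.36 CPM (adjusted p = 0.124). Hsbp1, which binds HSF1 and was the highest of this list, was at 56.4 ± 3.28 and 54.5 ± 5.45 CPM (adjusted p = 0.808). RNA levels say nothing of the activity of these factors.

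In the ER list 1 of 24 genes was lower. Pdia6, a protein disulphide isomerase that works with BiP, was at 413, 418 and 427 CPM with the vector and at 335, 307 and 304 CPM with circEZH2_005 (log2 fold change -0.41, standard error 0.08, adjusted p = 0.0412). P4hb, another disulphide isomerase and the highest by FPKM, was at 2446 ± 439 and 2206 ± 427 CPM (adjusted p = 0.681). None of the 14 genes of mitochondrial import and folding passed, with a median of -0.18. Tomm22, an import receptor and the highest of them, was at 124 ± 10.9 and 109 ± 3.29 CPM (adjusted p = 0.274).

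Among the 8 lower partners, 7 had a RefSeq promoter entry (Ppid had none). The short heat shock element was found in Hsph1 (in both of its 2 windows), Dnaja1 (in 1 of 3 windows) and Chordc1 (1 window), and these letters were not in the windows of Hspa4l, Ahsa2, Fkbp5 and Pdia6. A longer form, with 3 alternating units of GAA and TTC that are each 2 bases apart, on both strands, was searched after the data had been seen. It contains the short form and is held by 0.603% of promoters, and it was found in Hsph1 and Chordc1 but in no member with an entry. Chordc1 held 3 overlapping copies, the first of them 4 bases before the start, and in Hsph1 the site lay 15 or 36 bases after the start, depending on which of its 2 annotated starts was used. Pdia6 held the ER stress response element 98 bases before its start. The sites are printed in the same way, to be set beside those of Hspa1a, Hspa1b and Hspa5.
Hsph1, chr5:149636280-149636308, minus strand: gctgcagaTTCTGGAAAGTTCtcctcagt
Chordc1, chr9:18292255-18292283, plus strand: tgcaaccgGAACGTTCGGGAAaattcctg
Dnaja1, chr4:40722334-40722361, plus strand: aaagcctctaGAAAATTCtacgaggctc
Pdia6, chr12:17266486-17266514, plus strand: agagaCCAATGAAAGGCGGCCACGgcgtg

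Genes whose pattern over the 6 samples was most like that of a member were ranked by the root mean square difference of log2(CPM + 0.5), each gene centred on its mean. The pool was the 11602 genes tested whose mean over all 6 samples reached 1 FPKM. A gene could reach that mean through its higher group alone. Hspa1a itself, at a mean of 0.853 FPKM, did not reach it. The genes nearest to Hspa12a were the chemokine gene Ccl24 (0.20), the myelin and junction protein gene Pmp22 (0.37), the pseudogene Apol10c-ps (0.38), the phosphate transporter gene Slc34a2 (0.41) and the gasdermin gene Gsdmc3 (0.42). Ccl24 had 0, 21 and 0 counts with the vector and 337, 538 and 251 counts with circEZH2_005, and like Hspa12a it was highest in circEZH2_005 sample 2. Its vector values on this scale were set by the added 0.5, and it reached 1 FPKM through the circEZH2_005 group, so its first place depends on that constant; its fitted log2 fold change was 5.71. Slc34a2 was between 59.4 and 71.6 CPM with the vector and at 249, 655 and 327 CPM with circEZH2_005, again highest in circEZH2_005 sample 2, whereas Gsdmc3 was highest in circEZH2_005 sample 1. The genes nearest to Hspa1a were its copy Hspa1b (0.13), Fkbp5 (0.28), Hsph1 (0.31), Plet1 (0.33), a surface protein of epithelial progenitors, and Gml (0.38). The likeness covers only 6 samples and is mostly the difference between the groups.

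**Figure D5:**
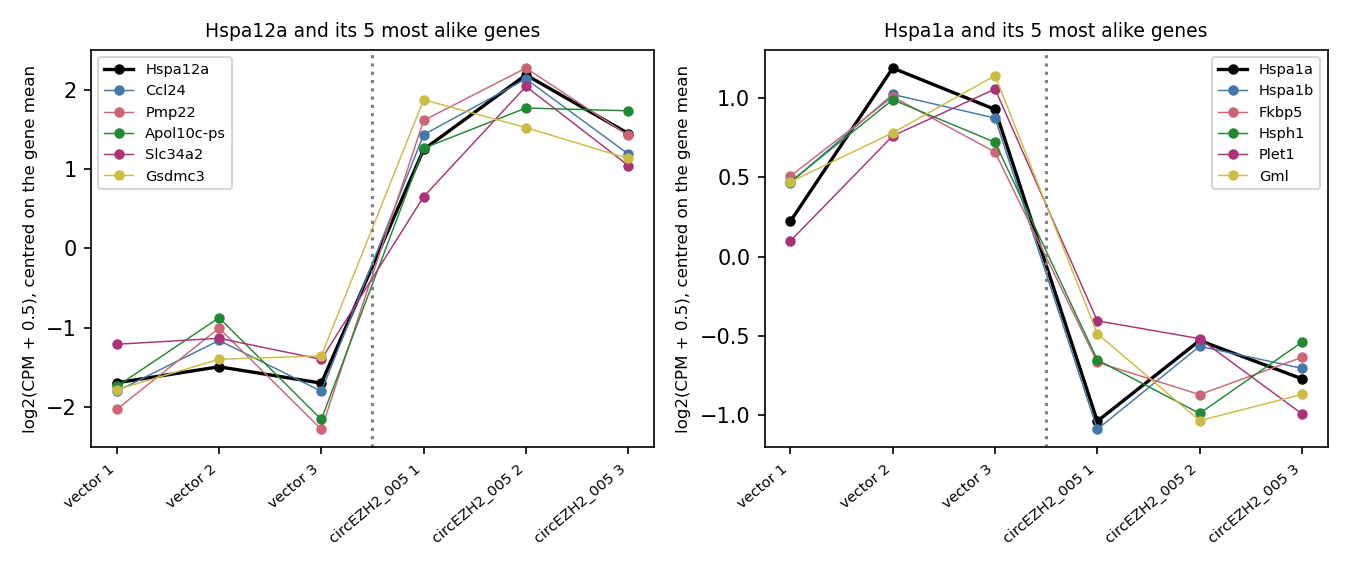
Log2(CPM + 0.5), centred on each gene's mean over the 6 samples, for Hspa12a (left) and Hspa1a (right) in black with the 5 genes nearest to each in colour; lines join the points of a gene and give no order of replicates. Hspa12a and its nearest genes lie below 0 in all vector samples and above 0 in all circEZH2_005 samples, and Hspa1a and its nearest genes lie the other way round.

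Markers of other cells and of acute stress in the same libraries stood as follows, and their part in the values of the members was not tested. The summed CPM of 13 leukocyte markers was between 81.9 and 224 with the vector and between 296 and 497 with circEZH2_005; 13 of 13 had a log2 fold change above 0 and none passed the test, 6 with an unadjusted p under 0.05. The summed CPM of 12 endothelial markers was between 5.08 and 7.30 and between 7.02 and 9.33. Cdh5, Kdr, Flt1, Emcn and Cldn5, which define endothelium, were at 0 in at least 1 sample, and 6 of the 12 were tested. Pecam1 was higher, at 0.982 ± 0.312 and 3.74 ± 1.36 CPM (adjusted p = 0.0377, and called in 3 of 10 alternatives), whereas Esam, at 2.19 ± 0.29 and 1.23 ± 0.24 CPM (adjusted p = 0.104), and Egfl7, at 1.43 ± 0.36 and 0.900 ± 0.283 CPM (adjusted p = 0.295), had log2 fold changes below 0 (-0.83 and -0.66) that did not pass. The summed CPM of 11 fibroblast and muscle markers was between 9.14 and 10.8 and between 5.81 and 15.4, and that of 10 enteric neuron and glia markers between 6.63 and 11.0 and between 6.66 and 8.61. Of 9 epithelial and crypt stem cell markers 1 was higher (Krt8, called in 5 of 12 alternatives). Lower were 2 (Lgr5 and Smoc2, called in 3 and 8 of 12 alternatives). The 4 with a log2 fold change below 0 were the stem cell markers Lgr5, Olfm4, Ascl2 and Smoc2. Epcam, Cdh1, Krt8, Krt18 and Vil1 were above 0. The sum of the 9 was between 7919 and 8451 CPM with the vector and between 8849 and 10687 CPM with circEZH2_005. Abundant genes such as Krt8 and Epcam carried much of it, so it does not follow the stem cell markers.

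Immediate early genes, which respond within minutes to stress and growth signals, were higher in 5 of 9 (Fosb, Jun, Junb, Atf3 and Dusp1), with a median log2 fold change of 1.07. Of the 9, 2 had a fitted log2 fold change below 0. Their summed CPM was between 128 and 147 with the vector and between 244 and 310.3 with circEZH2_005. Jun was at 19.6, 25.9 and 22.6 CPM with the vector and at 64.5, 66.6 and 63.5 CPM with circEZH2_005 (adjusted p = 0.00249), and was called in all 12 alternatives. The others depended more on single samples and settings, with calls in 7 of 10 alternatives for Fosb and in 5, 4 and 3 of 12 for Atf3, Junb and Dusp1.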

How the data were processed

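RNA sequencing of 6 samples was used, grouped and numbered by their titles. Columns of the deposited table named NC were matched to the vector samples, since the series has no other control group. The authors deposited raw counts of reads per gene, without normalization, and FPKM values per gene and sample. The submitters' processing notes name cutadapt 1.9, HISAT2 2.0.4, StringTie 1.3.4d, DESeq2 and mm10. The counter, the annotation and the handling of strand and of reads with several matches are not given in the sources used here. There were 0 unused columns of sample values.

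Counts were filtered with filterByExpr, scaled with TMM and tested for group differences by quasi-likelihood in edgeR 4.0.16 (R 4.3.3), without covariates. P-values were Benjamini-Hochberg adjusted over the 18348 genes tested, with a threshold of 0.05. CPM are TMM-scaled. A standard error is the fitted log2 difference over the root of its F statistic. Alternatives were median-of-ratios scaling, no filter, DESeq2 1.42.0, limma 3.58.1 on log2(FPKM + 1) and log2(FPKM + 0.1) for genes averaging 0.5 FPKM or more, a replicate block, each sample left out, and a fold change over 2. The fits were tested on simulated data. Gene positions, exons and shared 50-base windows came from GENCODE M21 (GRCm38), in which 28678 of 28752 identifiers were found. Libraries held between 71506487 and 79919893 counts, and each group had 3 samples. Intervals and floors cover counting error only.

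The members, lists and searches were chosen with earlier results of these data known. Named were all members, the superfamily genes outside them, in each partner list up to 3 genes in each direction that passed the test with the smallest p and the gene with the highest mean FPKM, Hsf1, Hsf2, genes overlapping a member and the 5 genes most like Hspa12a and Hspa1a. Ppid, Dnajb1, Bag3, Hsp90aa1 and the marker genes named fall outside this rule. Adding the counts of genes that share windows, and the 3-unit motif, were chosen after seeing the data.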

Additional observations from a re-analysis of the deposited data

How the results depend on the processing

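Hspa12a was higher and the other members compared were lower in fitted value in every alternative run, except that Hspa2 was too low for limma. The Hspa12a log2 fold change of 3.47 was 1.88 by limma on log2(FPKM + 1) and 3.06 on log2(FPKM + 0.1), scales on which the pseudocount understates low genes, and between 3.13 and 3.65 with each sample left out. Counts of calls depended more on the processing. Over all genes, 493 higher and 181 lower became 132 and 37 without a filter, 1632 and 831 by DESeq2, 310 and 292 by limma on log2(FPKM + 1), and 298 and 55 with a fold change over 2. On log2(FPKM + 0.1) 168 were higher. With each sample left out, between 26 and 1098 were higher and between 2 and 334 lower; they were lowest without vector samples 1 (26 and 2) and 3 (31 and 2) and circEZH2_005 samples 2 (62 and 6) and 3 (136 and 33), and highest without vector sample 2. Of the partners, 8 were lower and 0 higher. The lower count was 3 without a filter, 26 by DESeq2, 4 by limma on log2(FPKM + 0.1), 3 with a fold change over 2 and between 1 and 10 with each sample left out. The higher count was 2 by DESeq2 and between 0 and 1 with each sample left out. The causes were not tested. Fkbp5 kept its call in 12 of 12 alternatives, Hsph1 in 11, Ahsa2 in 8, Chordc1 in 7, Hspa4l in 6, Pdia6 in 5, and Dnaja1 and Ppid in 4 each.

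Samples with the same replicate number did not deviate together (correlations of -0.23, -0.04 and 0.09). With 3 samples per group this cannot show whether a number stands for a shared culture, so pairing remains unknown. With the replicate block, 241 genes were higher and 36 lower, 3 partners were lower (Ahsa2, Fkbp5 and Hsph1), and the Hspa12a log2 fold change was 3.42.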
